A study of Homo sapiens with 6 samples.

Results

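The genes described here are 10 enzymes and cofactors that write or remove repressive methyl marks, namely SUV39H1, SUV39H2, EHMT1 and EHMT2 for histone H3 lysine 9 (H3K9), DNMT1, DNMT3A, DNMT3B and UHRF1 for cytosine methylation, and TET2 and TET3 for its removal. They were chosen by name, and all 10 were found among the 78932 genes of the count table and among the 18474 genes tested. RNA-seq was made from T24, a cell line from a human urothelial carcinoma, in 3 cultures transfected with a non-targeting control siRNA (siNC) and 3 transfected with siRNA against TRIM28 (siTRIM28). All 6 cultures were titled as numbered replicates. The titles name no batch, and the labels give neither a time after transfection nor the siRNA sequence used. The comparison asked which transcripts change when TRIM28 is depleted. Only RNA was measured, so neither methylation nor enzyme protein is described.

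TRIM28 (also called KAP1) is a corepressor that KRAB zinc finger proteins bring to chromatin, where it recruits an H3K9 methyltransferase and heterochromatin protein HP1. SUV39H1 and SUV39H2 place the trimethyl mark of constitutive heterochromatin, whereas EHMT1 (GLP) and EHMT2 (G9a) act as a heterodimer that places mono- and dimethyl marks in euchromatin. DNMT3A and DNMT3B set new cytosine methylation, DNMT1 copies it to the daughter strand at replication, and UHRF1 brings DNMT1 to hemimethylated sites and to methylated H3K9. TET enzymes oxidise 5-methylcytosine, the first step of active demethylation.

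After TRIM28 silencing both EHMT genes fell, DNMT1, DNMT3B, UHRF1 and TET2 rose, and SUV39H1, SUV39H2, DNMT3A and TET3 did not pass the test. EHMT2 fell by 41.7%, the largest change of the 10, and TET2 had the largest rise, 1.45-fold. Thus 6 of 10 enzymes were called at an adjusted p under 0.05 (edgeR's quasi-likelihood test, Benjamini-Hochberg adjustment over all genes tested), where 41.8% of all genes tested were called. Of the 10, 4 were called higher, beside 21.3% of all genes tested, and 2 were called lower, beside 20.5%. The groups did not overlap in the same 6 genes, as in 52% of all genes tested. Only EHMT2 of the 10 also changed by at least 0.58 on the log2 scale, which 17% of all genes did. The median log2 fold change of the 10 enzymes was 0.05, against 0.02 over all genes tested. These are bulk libraries, in which fewer cells making a transcript and less of it per cell cannot be told apart.

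TRIM28 itself had 1419, 1393 and 1382 counts in siNC replicates 1, 2 and 3 and 130, 96 and 109 in siTRIM28, so the targeted transcript was low in every library labelled siTRIM28. TRIM28 fell by 3.54 on the log2 scale (edgeR adjusted p = 1.03e-10). Library totals lay between 11712623 and 14018052 counts. Replicates were not equally close. The chi-square of counts per degree of freedom was 1.08 for siNC replicates 1 and 2 and 1.24 for siTRIM28 replicates 2 and 3, where sampling noise alone gives 1, and 4.44 to 6.96 for the other pairs within a group. The keratins KRT8 and KRT18 were high (104 ± 0.619 and 86.1 ± 3.91 CPM, counts scaled to library size, in siNC, mean ± SD, n = 3), whereas 10 of 16 urothelial and epithelial markers, among them KRT5, KRT20, GATA3, EPCAM and CDH1, lay under the count minimum. Of the other 6, UPK1A, KRT7, KRT8 and TP63 rose, by 1.94, 0.56, 0.14 and 1.01 on the log2 scale. Thus 66.7% were called, all higher, beside 41.8% of all genes called and 21.3% called higher. The call of KRT8 was lost in 8 of 15 other fits and that of TP63 in 10 of 14, DESeq2 among them. That of KRT7 was lost with DESeq2. UPK1A and TP63 entered only 14 of 15 other fits, and the log2 fold change of UPK1A ranged from 1.57 to 2.25 in them. The summed level of the 16 was 193 to 200 CPM in siNC and 214 to 222 CPM in siTRIM28, and the part of these markers in the results below was not tested. Of 14 markers of blood, vessel, stromal and liver cells, only CD68, a lysosomal protein, passed that minimum, and PTPRC, PECAM1, DCN and ALB had at most 11 counts in any library.

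Levels of different genes can be compared only per length, here as RPKM (reads per kilobase of annotated exons, scaled to library size by TMM). In siNC, DNMT1 had the highest level of the 10 at 25.6 ± 0.569 RPKM (mean ± SD, n = 3), rank 1803 of 18474 genes. Its partner UHRF1 followed at 17.6 ± 0.136 RPKM and EHMT2 at 8.08 ± 0.195. SUV39H2 had 3.64 ± 0.109 RPKM and EHMT1 3.37 ± 0.103, close levels whose siNC libraries did not overlap. SUV39H1 at 1.50 ± 0.291 RPKM and DNMT3A at 1.42 ± 0.0780 did overlap and could not be ordered. DNMT3B at 0.932 ± 0.0426, TET3 at 0.723 ± 0.0768 and TET2 at 0.581 ± 0.0629 RPKM closed the order. TET2 was the least abundant of the 10 per length in siNC, and in siTRIM28 it stood at 0.843 ± 0.0734 RPKM, with TET3 at 0.747 ± 0.0573. The exon lengths are those of the deposited table and join all annotated isoforms, 22188 bases for EHMT1 against 7300 for EHMT2, and the isoforms T24 cells use were not resolved.

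**Figure D1:**
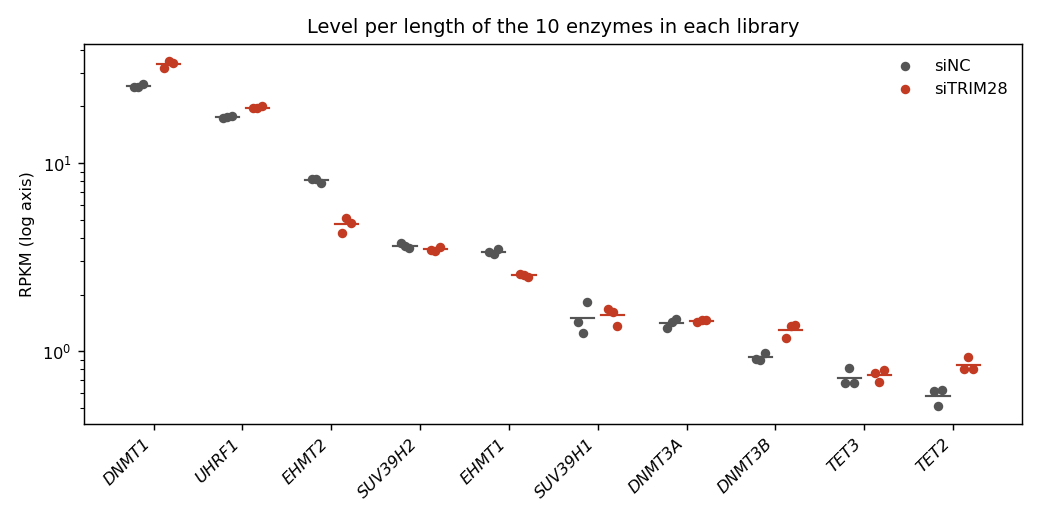
RPKM (log axis) of the 10 enzymes in each of the 6 libraries, ordered by the siNC mean, with points for libraries and lines for group means. DNMT1 and UHRF1 stood above 17 RPKM in every library, and the DNMT3 and TET genes stayed below 1.5 RPKM.

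The dimethyl H3K9 writers fell together. EHMT2 had 59.8, 59.8 and 57.3 CPM in siNC replicates 1, 2 and 3 and 31.1, 37.2 and 35.0 CPM in siTRIM28. All 3 silenced cultures lay well below all 3 controls, with siTRIM28 replicate 1 the lowest. The mean went from 59.0 ± 1.43 to 34.4 ± 3.09 CPM (SD, n = 3 each), or −0.78 on the log2 scale (95% interval −0.93 to −0.62, standard error 0.0714, edgeR adjusted p = 5.32e-06). Of all genes tested, 4.77% had a lower log2 fold change. The exact two-sided permutation test gave p = 0.1, the smallest that 3 against 3 libraries allow, as for every gene here whose groups did not overlap. EHMT2 (ENSG00000204371) lies at chr6:31879759-31897687 on the minus strand of GRCh38, and EHMT2-AS1 covers 4446 bases of it on the opposite strand. EHMT2-AS1 had a mean of 42.3 counts in siNC and 22.3 in siTRIM28 (−0.82 on the log2 scale, edgeR adjusted p = 0.00403), beside 613 for EHMT2 over all libraries. Whether the counting used strand is not given in the sources used here, so reads of the pair may not be separate.

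EHMT1, the partner of EHMT2, had 74.7, 72.7 and 77.2 CPM in siNC and 57.1, 56.7 and 55.2 CPM in siTRIM28. The libraries of each group were tight and did not overlap. EHMT1 fell by 24.7% (−0.41 on the log2 scale, 95% interval −0.52 to −0.30, standard error 0.0519, edgeR adjusted p = 6.82e-05). EHMT1 (ENSG00000181090) lies at chr9:137618992-137870016 on the plus strand, with ENSG00000283411, a gene of 74.2 counts on average, on its own strand. WIZ, a zinc finger protein of the EHMT1-EHMT2 complex, also fell, from 17.6 ± 0.499 to 13.3 ± 1.13 CPM (SD, n = 3), whereas ZNF644, another zinc finger protein of the complex, rose by 0.21 on the log2 scale (edgeR adjusted p = 0.00159 and 0.0110), a call lost with DESeq2 and with the closest libraries summed. The pattern over the 6 libraries most like that of EHMT2, by the root mean square difference of log2 CPM after the siNC mean was taken off, was found in LARS2 (0.0296), USP22 (0.0409) and ROCK1 (0.0411) among 12827 genes with a mean of at least 50 counts.

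The promoters of these paired genes are shown because EHMT1 and EHMT2 moved together. The windows run from 250 bases before to 50 bases after the RefSeq start (GRCh38.p14), written 5′ to 3′ on the strand of the gene, chr9:137618755-137619054 (plus) for EHMT1 and chr6:31897649-31897948 (minus) for EHMT2. Capitals mark GGGCGG on either strand, the core of the GC box.
EHMT1: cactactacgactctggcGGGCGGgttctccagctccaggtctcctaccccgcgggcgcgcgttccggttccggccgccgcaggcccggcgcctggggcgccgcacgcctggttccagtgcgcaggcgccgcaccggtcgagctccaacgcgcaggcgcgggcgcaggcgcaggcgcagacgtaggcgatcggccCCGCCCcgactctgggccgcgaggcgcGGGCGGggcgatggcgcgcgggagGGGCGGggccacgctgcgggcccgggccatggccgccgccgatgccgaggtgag
EHMT2: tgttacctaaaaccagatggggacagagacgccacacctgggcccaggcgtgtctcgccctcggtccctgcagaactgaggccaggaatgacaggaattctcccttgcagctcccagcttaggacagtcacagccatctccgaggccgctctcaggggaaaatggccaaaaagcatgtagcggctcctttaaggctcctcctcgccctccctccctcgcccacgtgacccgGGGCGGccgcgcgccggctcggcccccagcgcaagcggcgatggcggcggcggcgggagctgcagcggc
The EHMT1 window held 51 CpG dinucleotides and 4 GC boxes, the EHMT2 window 25 and 1. The median of 35116 RefSeq promoter windows of this length was 14 CpG, and 44.95% of them held GGGCGG. These motifs, like those searched below, were chosen after the values of the genes were seen.

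The trimethyl H3K9 writers were not distinguishable between the groups at this depth. SUV39H1 had 64, 56 and 75 counts in siNC and 76, 62 and 52 in siTRIM28, overlapping ranges. Its log2 fold change was 0.06, with a 95% interval from −0.32 to 0.44 (edgeR adjusted p = 0.807), which leaves room for a rise to 1.35-fold or a fall to 0.803 of the control level. SUV39H2 was more precise, with 13.4, 12.9 and 12.6 CPM in siNC and 12.3, 12.1 and 12.8 CPM in siTRIM28. Its log2 fold change was −0.07 with an interval from −0.24 to 0.10 (edgeR adjusted p = 0.574). Both genes overlap others on the opposite strand. ENSG00000232828, with 20.7 counts on average, covers all of SUV39H1 (chrX:48695554-48707857), and DCLRE1C, a DNA repair nuclease with 148 counts, covers 6957 bases of SUV39H2 (chr10:14878820-14904315).

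Per length, the sum of SUV39H1 and SUV39H2 over that of EHMT1 and EHMT2 was 0.448, 0.425 and 0.473 in siNC and 0.749, 0.654 and 0.681 in siTRIM28. The ratio was higher in every silenced culture than in any control, 0.695 ± 0.0490 against 0.449 ± 0.0238 (SD, n = 3), and of the genes in it EHMT1 and EHMT2 were called and the SUV39H genes were not.

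**Figure D2:**
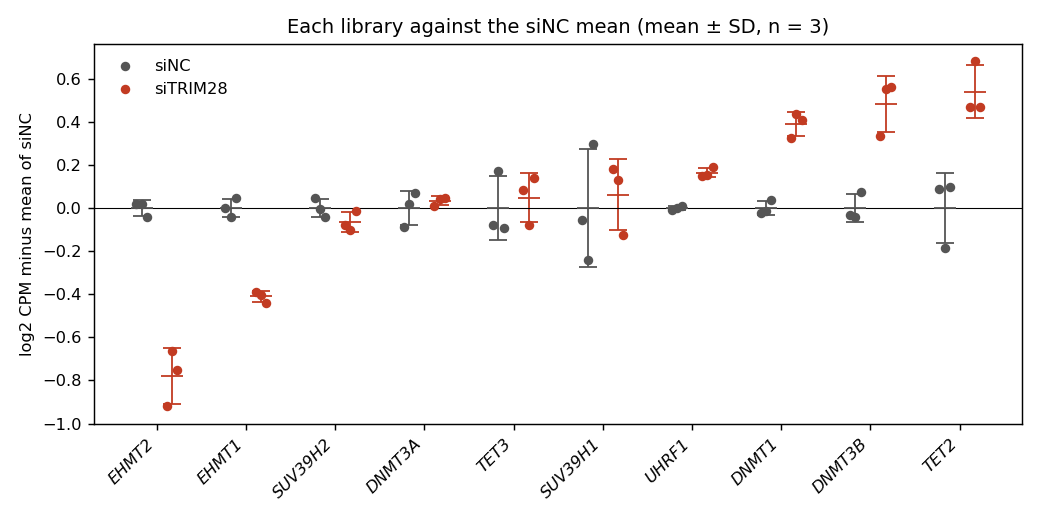
log2 CPM of each library minus the siNC mean of the gene, for the 10 enzymes ordered by fold change, with points for libraries and bars for mean ± SD (n = 3). EHMT2 and EHMT1 lay below the controls and UHRF1, DNMT1, DNMT3B and TET2 above them, while the groups overlapped in SUV39H2, DNMT3A, TET3 and SUV39H1.

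The maintenance methylation genes rose. DNMT1 had 388, 391 and 404 CPM in siNC and 494, 534 and 523 CPM in siTRIM28. Every silenced culture stood above every control, and siTRIM28 replicate 1 rose least. The mean went from 394 ± 8.75 to 517 ± 20.4 CPM (SD, n = 3), 1.31-fold, or 0.39 on the log2 scale (95% interval 0.30 to 0.48, standard error 0.0409, edgeR adjusted p = 1.57e-05). With 5159 to 6924 counts a library, DNMT1 was the most deeply counted of the 10. It lies at chr19:10133342-10231286, minus strand, where S1PR2 on the same strand had only 7 counts on average.

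UHRF1 had 89.8, 90.5 and 91.2 CPM in siNC and 100.3, 100.6 and 103 CPM in siTRIM28. The libraries did not overlap, but the difference was small, 1.12-fold. On the log2 scale it was 0.16 (95% interval 0.07 to 0.26, standard error 0.0443, edgeR adjusted p = 0.0111). UHRF1 was the only one of the 6 whose call at an adjusted p under 0.05 was lost in another fit. It was lost with DESeq2 (0.16, adjusted p = 0.0784), with no filter on low counts, with the closest libraries summed, and without siNC replicate 1, siNC replicate 2 or siTRIM28 replicate 3, where the log2 fold change was 0.15, 0.15 and 0.14. UHRF1 (ENSG00000276043) lies at chr19:4903080-4960961, plus strand.

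DNMT1 and UHRF1 are textbook targets of E2F, the transcription factor family of S phase entry, and their promoter windows were the only ones of the 10 genes with a match to the E2F motifs TTTCCCGC, TTTGGCGC, TTTCGCGC or TTTGCCGC on either strand. Such a match stood in 3.31% of all promoter windows of this length, and it does not show that the factor binds. That share is per window, and the genes had unequal numbers of windows. The windows of DNMT1, UHRF1 and DNMT3B lay inside the deposited spans of these genes, so their deposited starts were not searched. The DNMT3B window was chr20:32779602-32779901, whereas the deposited gene starts at 32762385. The E2F1 transcript, in the S phase list below, fell, with log2 fold changes from −0.48 to −0.33 over 15 other fits. Its call was lost without siNC replicate 1. The part of E2F in the values of DNMT1 and UHRF1 was not tested. The windows are chr19:10194904-10195203 (minus strand) for DNMT1 and the first of 3 RefSeq windows, chr19:4909251-4909550 (plus strand), for UHRF1 (GRCh38.p14), with the match in capitals.
DNMT1: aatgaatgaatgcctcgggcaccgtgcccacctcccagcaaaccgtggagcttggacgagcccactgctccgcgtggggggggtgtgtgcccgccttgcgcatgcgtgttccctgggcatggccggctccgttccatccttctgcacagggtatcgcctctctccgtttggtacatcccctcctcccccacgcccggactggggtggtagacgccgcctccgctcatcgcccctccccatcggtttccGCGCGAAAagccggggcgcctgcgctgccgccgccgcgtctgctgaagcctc
UHRF1: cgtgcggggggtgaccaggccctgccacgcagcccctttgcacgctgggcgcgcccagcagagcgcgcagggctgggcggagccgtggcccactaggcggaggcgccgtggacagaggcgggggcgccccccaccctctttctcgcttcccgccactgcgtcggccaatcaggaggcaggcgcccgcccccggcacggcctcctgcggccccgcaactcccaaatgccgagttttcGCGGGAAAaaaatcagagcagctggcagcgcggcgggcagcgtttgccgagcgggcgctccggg
The match began at base 249 of the DNMT1 window and at base 237 of the UHRF1 window, at positions −2 and −14 from the start. The second UHRF1 window held another match, and the windows of EHMT1 and EHMT2 shown above held none. The DNMT1 window had 30 CpG and the UHRF1 window 36.

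Of the de novo methyltransferases, DNMT3B rose and DNMT3A did not pass the test. DNMT3B had 6.26, 6.21 and 6.74 CPM in siNC and 8.07, 9.37 and 9.46 CPM in siTRIM28, with all silenced cultures above all controls. It rose 1.40-fold (0.48 on the log2 scale, 95% interval 0.22 to 0.74, standard error 0.118, edgeR adjusted p = 0.00625), on 86 to 113 counts a library. DNMT3A had 18.4, 19.8 and 20.5 CPM in siNC and 19.6, 20.1 and 20.2 CPM in siTRIM28. The silenced cultures lay inside the control range, and the log2 fold change was 0.03 with an interval from −0.12 to 0.18 (edgeR adjusted p = 0.751). DNMT3L, the catalytically inactive germline cofactor of both, had 0 counts in all 6 libraries.

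Of the demethylating enzymes, TET2 rose and TET3 did not pass the test. TET2 had 10.2, 8.38 and 10.2 CPM in siNC and 13.2, 15.3 and 13.2 CPM in siTRIM28, and the lowest silenced culture stood above the highest control. The difference was 0.54 on the log2 scale (95% interval 0.31 to 0.76, standard error 0.104, edgeR adjusted p = 0.00150). TET3 had 8.86, 10.5 and 8.78 CPM in siNC and 9.93, 8.87 and 10.3 CPM in siTRIM28, with overlapping groups. Its log2 fold change was 0.05 with an interval from −0.20 to 0.29 (edgeR adjusted p = 0.772). TET1, the third enzyme of the family, was near the count minimum at 1.36 ± 0.307 CPM in siNC and 1.39 ± 0.275 in siTRIM28 (SD, n = 3), and a difference was not detectable at this depth.

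Whether 1 paralog changed more than the other was asked in 4 pairs. Each library gave a log2 ratio of the pair, and the groups were compared by an exact two-sided permutation test that cannot go below p = 0.1. For EHMT1 over EHMT2 the ratio was 0.32, 0.28 and 0.43 in siNC and 0.87, 0.60 and 0.66 in siTRIM28. The groups did not overlap, and the ratio was higher in siTRIM28 by 0.37 ± 0.0934 (standard error, exact permutation p = 0.1, 0.133 adjusted over 4 pairs). For DNMT3A over DNMT3B the ratio went from 1.59 ± 0.0598 to 1.15 ± 0.105 (SD, n = 3), a difference of −0.44 ± 0.0700 (standard error) with the same p. For TET2 over TET3 it went from 0.03 ± 0.306 to 0.51 ± 0.231, a difference of 0.48 ± 0.221 with the same p, in groups that did not overlap but were wide. This last difference was 0.31 without siNC replicate 2, the library with the least TET2. For SUV39H1 over SUV39H2 the groups overlapped, and the difference of 0.13 ± 0.204 had an exact permutation p of 0.7. It lay between 0.0109, without siNC replicate 2, and 0.290, without siNC replicate 3, when 1 library was left out. This permutation test could not put any of the 4 differences under 0.05. An exact sign-flip test that paired libraries by replicate number gave p = 0.25 for EHMT1/EHMT2, DNMT3A/DNMT3B and TET2/TET3 and 0.75 for SUV39H1/SUV39H2. With so few libraries that test cannot go below 0.25 either.

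**Figure D3:**
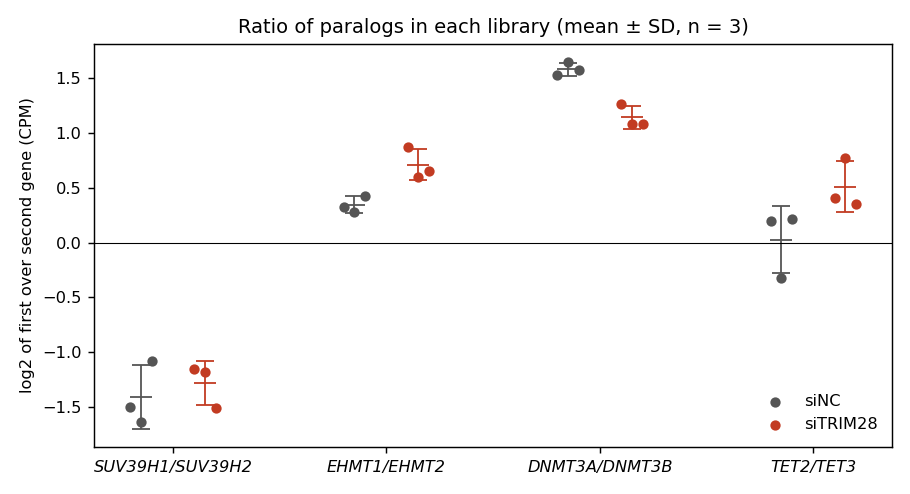
log2 ratio of the CPM of paired paralogs in each library, first gene over second, with points for libraries and bars for mean ± SD (n = 3). The ratio was higher in siTRIM28 for EHMT1/EHMT2 and TET2/TET3 and lower for DNMT3A/DNMT3B, without overlap of the groups, while the SUV39H1/SUV39H2 groups overlapped.

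Writers and erasers of cytosine methylation were also set side by side per length. The summed RPKM of DNMT1, DNMT3A and DNMT3B was 21.2, 21.0 and 22.2 times that of TET2 and TET3 in siNC and 22.2, 23.3 and 23.1 times in siTRIM28. The highest control and the lowest silenced culture were both at 22.2, and the means were 21.5 ± 0.656 and 22.9 ± 0.602 (SD, n = 3). The sum of DNMT1 and UHRF1 over that of DNMT3A and DNMT3B was 18.4 ± 0.592 in siNC and 19.4 ± 0.445 in siTRIM28 (SD, n = 3), with siNC replicate 1 inside the range of the silenced cultures.

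Other genes of the same pathways were described by lists, which were chosen with earlier results of these data known. Of 11 tested H3K9 demethylases, 6 rose and 3 fell, 81.8% called beside 41.8% of all genes, with a median log2 fold change of 0.25. KDM3A, which removes mono- and dimethyl H3K9, rose from 106 ± 3.60 to 194 ± 8.58 CPM (SD, n = 3), or 0.86 on the log2 scale (edgeR adjusted p = 1.10e-07). Its relative JMJD1C rose by 0.54 and KDM7A by 0.48 (edgeR adjusted p = 9.61e-07 and 2.50e-04). KDM4A, which acts on trimethyl H3K9, fell by 0.41, PHF2 fell by 0.36 and KDM3B fell by 0.18 on the log2 scale (edgeR adjusted p = 5.49e-04, 9.25e-04 and 0.0104). With the closest libraries summed 7 demethylases were called against 9, and 5935 of all genes against 7723. The calls of KDM3B and KDM1A were lost there, and that of KDM1A was lost in 5 of 15 other fits. Of 10 other H3K9 methyltransferases and EHMT cofactors, 3 rose, 1 fell and 6 did not pass, 40% called beside 41.8% of all genes, with a median of 0.05. ATF7IP2 and the methyltransferase PRDM2 rose by 0.49 and 0.32, beside ZNF644 and WIZ above, and SETDB1, the methyltransferase TRIM28 recruits, had 25.1 ± 1.26 CPM in siNC and 26.4 ± 1.80 in siTRIM28 (edgeR adjusted p = 0.464).

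Of 9 methyl-lysine readers, 3 rose and 1 fell, 44.4% called and so near the 41.8% of all genes, with a median log2 fold change of 0.18. Without siTRIM28 replicate 1 the median was 0.0505. CDYL2 rose by 0.84 and CBX7 by 0.70 on the log2 scale. CBX7 is a Polycomb protein better known as a reader of methylated H3K27. Among the HP1 genes, CBX1 fell by 0.14 on the log2 scale (edgeR adjusted p = 0.0274), a call lost in 7 of 15 other fits, among them DESeq2 and total-count or upper-quartile scaling. The other HP1 genes, CBX3 and CBX5, were not called, with log2 fold changes of 0.22 and 0.02.

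Among 15 tested genes of DNA methylation and demethylation outside the 10, 5 rose and 4 fell, 60% called beside 41.8% of all genes, with a median of −0.10. TRDMT1, which methylates tRNA despite its kinship to DNMT1, rose by 0.85, the stress gene GADD45B by 0.80, and TDG, the glycosylase that excises the products of TET enzymes, by 0.53. UNG, a uracil glycosylase, fell by 0.69, PCNA, the replication clamp that DNMT1 binds, fell by 0.49, and CDCA7, the partner of the remodeller HELLS, fell by 0.46 on the log2 scale. HELLS had 109.7 ± 3.40 CPM in siNC and 102 ± 5.37 in siTRIM28 and was not called. Of 10 methyl-CpG binding proteins, 2 rose and 3 fell, 50% called beside 41.8% of all genes, with a median of −0.12. MBD3, a subunit of the NuRD complex, fell by 0.61 and ZBTB4 fell by 0.26, while MBD1 and MBD5 rose by 0.28 each (edgeR adjusted p between 3.38e-05 and 0.0241). This count of 5 was 3 with DESeq2, which called 5878 of all genes against 7723. ZBTB4 and MBD5 were lost with DESeq2, and MBD1 was lost without siNC replicate 1.

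DNMT1 and UHRF1 are expressed with the cell cycle, so S phase genes are given beside them. All 22 were tested, 7 rose and 9 fell, 72.7% called beside 41.8% of all genes, with a median log2 fold change of 0.01. That median was near 0 and its sign was not stable, from −0.0127 without siNC replicate 1 to 0.0283 without siTRIM28 replicate 1. CCNE1 rose by 0.83, CDT1 by 0.64 and CCNE2 by 0.42, whereas POLA1 fell by 1.35, RRM2 fell by 1.09 and MCM2 fell by 0.70 on the log2 scale. The summed level of the list was 1883 to 1921 CPM in siNC and 1777 to 1834 CPM in siTRIM28, lower in siTRIM28 while DNMT1 and UHRF1 were higher. The part of the cell cycle in the values of these enzymes was not tested.

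Germline genes whose promoters are methylated in somatic cells are a common readout of DNA methylation. Of 25 such genes, among them DAZL, DDX4, MAEL and TDRD1, only SYCP2 and SYCP3 passed the count minimum, and 6 had 0 counts in every library. Neither was called by edgeR's quasi-likelihood test, DESeq2 or limma-voom, and 0 of 2 had an unadjusted p under 0.05 in any of these. The whole list had 69, 63 and 42 counts in siNC and 69, 64 and 73 in siTRIM28. Scaled to library size, its sum was 3.29 to 4.97 CPM in siNC and 4.93 to 6.17 CPM in siTRIM28. These ranges overlapped only slightly, and the sum was not tested. With no filter on low counts 2 of 19 were called in opposite directions, in a fit that called 8018 of 46060 genes. PIWIL2 had 3, 3 and 1 counts in siNC and 8, 5 and 11 in siTRIM28, and TEX19 had 7, 10 and 8 counts in siNC and 2, 1 and 0 in siTRIM28. At this depth no broad appearance of germline transcripts was detectable.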

How the data were processed

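Poly(A) RNA of 6 T24 cultures was sequenced with a stranded library kit. The deposited values are unnormalized read counts, 1 column per culture, which the authors made for 78932 genes of GRCh38. The submitters' processing notes name fastp 0.23.1, STAR 2.7.6a and featureCounts, and the annotation release, strand setting and duplicate handling are not given in the sources used here, so reads of overlapping genes may be shared or lost. A deposited RPKM table of genes the authors selected was not used.

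Here the quasi-likelihood test of edgeR 4.0.16 (R 4.3.3) was run on TMM-scaled libraries with the siRNA as its single term. It covered genes reaching 10 counts in 3 or more of 6 libraries, with Benjamini-Hochberg adjustment and a threshold of 0.05. Standard errors were derived from the F statistic, and 95% intervals use the t quantile of the fit. CPM and RPKM use TMM-scaled library sizes. Ratios use log2 CPM with a prior count of 2. Library totals of 11712623 to 14018052 counts leave genes under about 100 counts with wide intervals. Intervals and p-values treat the 3 libraries of a group as independent. The siNC replicates 1 and 2, and the siTRIM28 replicates 2 and 3, differed by little more than sampling noise (chi-square per degree of freedom 1.08 and 1.24). If such a pair was not made from separate cultures, the intervals and p-values are too small. This was not tested, and the fit with the closest pairs summed counts each such pair as a single library.

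The 10 genes and all lists were chosen with earlier results of these data known. Named genes are the 10, TRIM28, up to 3 largest rises and falls called in each list, and the 3 genes most like EHMT2. A few called list members are left unnamed and not reported here. KDM1A, E2F1, CBX3, CBX5, SETDB1, HELLS, TET1, DNMT3L, the markers, overlapping genes and germline genes were named after their values were seen. Promoter windows came from RefSeq (GRCh38.p14), with 20 windows for all 10 genes.

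Alternatives were total-count, RLE and upper-quartile scaling, limma-voom (limma 3.58.1), DESeq2 1.42.0, other filters, a replicate block, each library left out, closest pairs summed, an adjusted p under 0.01 and a fold threshold. The fit was also run on simulated counts with known fold changes, drawn from the means of these data and the dispersion of the main fit. Figures were made with Python 3.11.15 and matplotlib 3.10.9.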

Additional observations from a re-analysis of the deposited data

How the results depend on the processing

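The calls of EHMT1, EHMT2, DNMT1, DNMT3B and TET2 kept their direction and stayed under an adjusted p of 0.05 in all 15 other fits, and DNMT3B came nearest to the threshold with the closest pairs summed (adjusted p = 0.0477, edgeR). The log2 fold change lay between −0.84 and −0.71 for EHMT2, −0.44 and −0.38 for EHMT1, 0.37 and 0.42 for DNMT1, 0.43 and 0.56 for DNMT3B, and 0.44 and 0.58 for TET2. UHRF1 was no longer past the threshold with DESeq2 (0.16), no filter (0.15) or the closest pairs summed (0.16), and lay between 0.14 and 0.17 with each library left out. The cause was not tested. Of the genes not called, SUV39H1 lay between −0.0634 and 0.22 with each library left out (−0.00262 without siTRIM28 replicate 1), DNMT3A between −0.0188 and 0.0658, and TET3 between −0.00939 and 0.13 (−0.00453 without siNC replicate 1).

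With a log2 fold change of at least 0.58 as a second threshold, 1 enzyme was called, 0 higher and 1 lower, and 3144 genes in all, 1757 higher and 1387 lower. The count of 6 enzymes was 5 at an adjusted p under 0.01, where 5393 genes in all were called, and 5 or 6 in the other fits. The median log2 fold change of the 10 was 0.0871 with upper-quartile scaling and between 0.00761 and 0.12 with each library left out. Upper-quartile scaling moved the median of all genes by 0.03 and the share of higher calls to 56.6%. Without siTRIM28 replicate 1, 7 of the other H3K9 methyltransferases and EHMT cofactors were called, against 4, and leaving out a library gave between 4 and 7. Of the methyl-CpG binding proteins, 3 were called with DESeq2 and 3 with the closest pairs summed, against 5. The calls over all genes moved as well. They were 8252 without siTRIM28 replicate 1, 5878 with DESeq2 and 5935 with the closest pairs summed, against 7723 in the main fit. Without the length correction, the ratio of DNMT1 and UHRF1 to DNMT3A and DNMT3B was 1.14 times higher in siTRIM28.

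The deviations of same-numbered libraries from their group means correlated by 0.07, −0.02 and 0.05. The titles do not say whether same-numbered cultures were paired, and with 3 libraries a group these correlations cannot decide it. With the replicate number as a block 7910 genes were called against 7723, and the count of enzymes stayed at 6, with log2 fold changes of −0.78 for EHMT2, 0.39 for DNMT1 and 0.16 for UHRF1. Genes with about 100 counts or fewer, such as SUV39H1, limit what this depth can show.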
